A study of Equus caballus with 3 samples.

Results

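The cells described here were 113 equine mesenchymal stromal cells (MSCs) derived from peripheral blood (PB) that carried an NSG1 transcript and a high sum of transcripts over NSG1, MGP and NDUFA4L2, with all 3 genes detected in 42 of them. They were taken from the 5318 PB cells that passed the filters, and from 16301 cells over 3 libraries. A cell was selected when it had at least 1 unique molecular identifier (UMI, the tag that marks 1 captured transcript) of NSG1, at least 4 UMIs summed over the 3 genes, and at least 8 of these per 10000 UMIs of the cell. The members were thus chosen by measured values, and the levels of NSG1, MGP and NDUFA4L2 in them are a description of that choice. All other genes were compared with the other 5205 kept PB cells.

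The cells came from 1 healthy warmblood mare of 10 years that was kept for research, and the labels name no treatment of the cultures. Cultures from its adipose tissue (AT), its bone marrow (BM) and its PB were grown for 2 passages and captured with the droplet 3′ chemistry, version 2, with 1 library per source. The deposited titles give these sources, while the source name of all 3 samples reads as PB mononuclear cells. No replicate library exists for any source, so no test was run across cells, and every 95% interval below, exact Poisson for summed UMIs, exact binomial for ratios and Clopper-Pearson for shares of cells, covers counting error only.

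NSG1 encodes a small transmembrane protein of endosomes that takes part in receptor recycling and is best known from neurons. MGP, matrix Gla protein, is a secreted vitamin K-dependent inhibitor of calcification made by cartilage, vascular and other stromal cells. NDUFA4L2 is a mitochondrial protein related to the respiratory chain subunit NDUFA4, is induced by hypoxia-inducible factor and is often used as a marker of pericytes. Cultured MSCs are fibroblast-like cells defined by adherence, surface antigens and differentiation in vitro, and a culture can hold cells in several transcriptional states.

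Depth was similar between the sets of kept cells, with a median of 7379 UMIs in the selected cells and 7755 in the other PB cells, and 7291 in AT and 6874.5 in BM. The selected cells summed to 828056 UMIs and the other PB cells to 40794389, so that a gene at 25 CPM (a gene's summed UMIs scaled to 1e+06 UMIs of the set) rested on 20.7 UMIs in the selected cells. The median mitochondrial share was 1.40% in the selected and 1.55% in the other PB cells. Barcodes were shared between libraries: each of the 113 selected barcodes was also present in the AT matrix, as were all 5205 others, but at a median of 782 UMIs (301 to 1330) for the selected ones, and 0 of the 113 passed the filters in AT or BM. At these barcodes the AT matrix held 237 CPM of NSG1, 1151 CPM of MGP and 282 CPM of TFPI2 and 0 UMIs of IGFBP5, beside 23.3, 88.2, 29.0 and 10.5 CPM at the 5168 other PB barcodes not kept in AT. What these shared barcodes contribute was not tested. Of the other PB cells, 37 barcodes were kept in AT and 38 in BM, and leaving all of these out gave the same counts of genes, 37 higher and 21 lower.

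By the markers fixed for the purpose, the selected cells were stromal. All 14 stromal genes were detected, among them COL1A2 at 8164 CPM against 7071 CPM, VIM at 22156 CPM against 16481 CPM and THY1 at 102.7 CPM against 90.3 CPM. Of the 13 with a mean of at least 25 CPM over both sets, 11 were higher and 2 lower than in the other PB cells. Their median log2 ratio was 0.21, the lowest was −0.20 and 0 passed 2-fold. Of 15 haematopoietic genes, 13 had 0 UMIs in the selected cells, including PTPRC, CD14, LYZ, CD3E and CD34, and the whole list summed to 8 UMIs, of which 7 belonged to CD68. The list was at 9.66 CPM in the selected and 8.24 CPM in the other PB cells. All 12 endothelial genes, among them PECAM1, CDH5, VWF and KDR, had 0 UMIs, and the list summed to 5.10 CPM in the other PB cells. In the selected cells 3 UMIs correspond to 3.62 CPM, so these zeros do not set them apart from the other PB cells. Of 12 pericyte genes 7 had 0 UMIs, RGS5, KCNJ8 and ABCC9 included, whereas PDGFRB reached 60.4 CPM against 37.5 CPM and CSPG4 29.0 CPM against 21.4 CPM. In the far larger set of other PB cells 3 of the 12 had 0 UMIs.

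**Figure D1:**
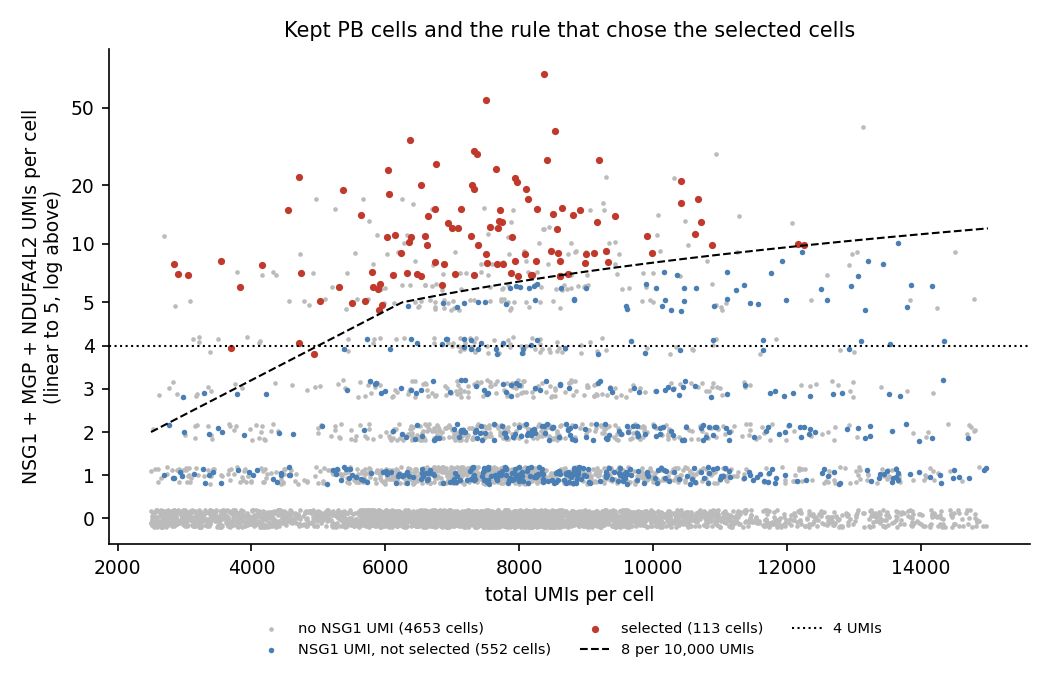
Summed UMIs of NSG1, MGP and NDUFA4L2 per cell (y, linear to 5 and logarithmic above, with a small vertical jitter) against total UMIs per cell (x) for 5318 kept PB cells. Before the jitter, the 113 selected cells (red) lie on or above both lines, while 552 cells with an NSG1 UMI (blue) lie below at least 1 of them and 4653 cells (grey) had no NSG1 UMI.

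The 3 genes were not present in equal measure. In the selected cells NSG1 summed to 304 UMIs (a median of 2 and at most 11 per cell), MGP to 1044 UMIs (median 6, at most 73) and NDUFA4L2 to 117 UMIs (median 0, at most 7). As levels these were 367 CPM against 19.2 CPM, 1261 CPM against 93.5 CPM and 141 CPM against 5.29 CPM in the other PB cells. NDUFA4L2 was found in 46 of the 113 cells, and 66 cells met the rule with NSG1 and MGP alone. All 3 genes were seen in 42 cells, NSG1 with NDUFA4L2 in 4 and NSG1 by itself in 1.

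The edge of the rule ran through a continuous range. The summed rate of the selected cells went from 8.02 to 89.5 per 10000 UMIs with a median of 14.7, and 17 of them were below 9. Just outside, 12 cells with an NSG1 UMI and at least 4 summed UMIs had a rate between 7 and 8, and 2 cells met the rate with 3 UMIs. A further 111 cells met both limits without an NSG1 UMI, as seen among the grey points above the lines in the plot of summed UMIs.

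Over all kept PB cells, MGP and NDUFA4L2 were detected in a larger share of the cells with an NSG1 UMI than of those without, which is a description, since the rule rests on these genes. NDUFA4L2 was detected in 12.5% (95% interval 10.1 to 15.2) of 665 cells with an NSG1 UMI and in 2.56% (2.12 to 3.05) of 4653 cells without, at medians of 8352 and 7655 UMIs per cell. With every cell thinned to 2500 UMIs the shares were 7.37% of 285 and 1.41% of 5033 cells. For MGP the thinned shares of the same cells were 31.6% (26.2 to 37.3) and 16.7% (15.7 to 17.7).

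To ask where the selected cells stood among the PB cells, clusters were rebuilt without NSG1, MGP and NDUFA4L2. Of 10 clusters, a small one of 110 cells led by TFPI2, SFRP2, SFRP1 and CEP128 held 43 selected cells, which was 38.1% (29.1 to 47.7) of them and 39.1% (29.9 to 48.9) of that cluster. A second cluster of 382 cells, led by PIGK, PLTP and SERPINF1, held 28, or 24.8% (17.1 to 33.8) of the selected cells and 7.33% (4.93 to 10.4) of the cluster. The other 42 were spread over the 8 further clusters, where they were between 0.317% and 2.78% of the cells. The selected cells were therefore not 1 cluster, and they are called by their rule below.

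**Figure D2:**
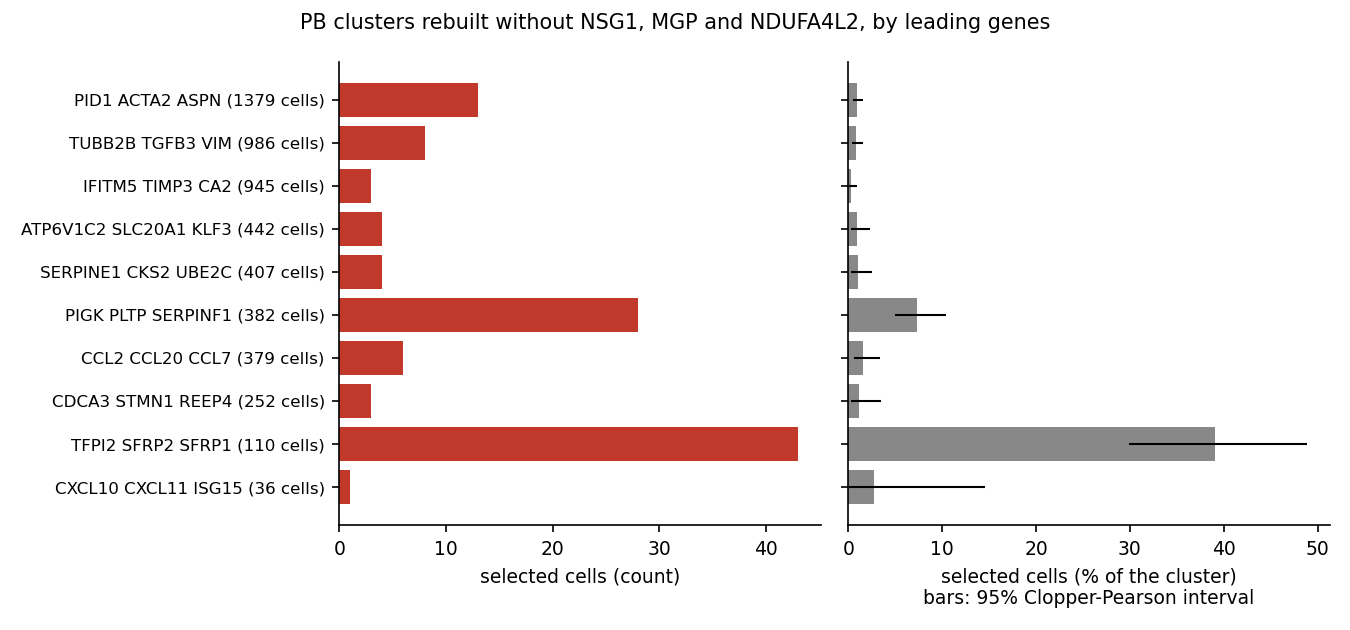
Number of selected cells in each of the 10 PB clusters rebuilt without the 3 genes (left) and their share of the cluster in percent with 95% Clopper-Pearson intervals (right), the clusters being named by 3 of their leading genes. The TFPI2-led cluster holds 43 and the PIGK-led cluster 28 of the 113 cells.

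The levels of the 3 genes in these clusters are a description, since the rule used them and 43 of the 110 cells of the TFPI2-led cluster had been selected for them. NSG1 reached 242 CPM over its 110 cells and between 11.7 and 50.9 CPM in the 9 others. MGP was at 649 CPM there and at 20.8 to 291 CPM elsewhere, and NDUFA4L2 at 92.0 CPM against 0 to 17.3 CPM. NDUFA4L2 was seen in 16 of the 67 cells of this cluster that the rule left out (23.9%) and in 123 of the 4784 unselected cells outside the 2 clusters (2.57%). With resolutions of 0.4 and 0.8 and with 30 principal components, the cluster with most selected cells held 41 of 106, 43 of 111 and 39 of 106 cells, and its overlap with the 110 cells was not computed. With 10 principal components the cluster with most selected cells held 35 of them among 1131 cells and the one with the largest share held 27 among 396 (6.82%).

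Among 3818 genes with a mean of at least 25 CPM over both sets, 37 (0.969%) were at least 2-fold higher in the selected cells and 21 (0.55%) at least 2-fold lower, on the scale of log2(CPM + 1). The median log2 ratio of all genes compared was 0.003. Some higher genes were under 25 CPM in the other cells and met the minimum only through the selected cells. Among these were SFRP2 (1.37 CPM in the other cells), GBP1 (12.4), IRF1 (17.7), HSPA1A (18.2), SH3BP5 (21.2) and MTUS1 (22.4). In the same way lower genes such as TNFSF11 (13.3 CPM in the selected cells) met it only through the other cells. With the other cells weighted to the clusters of the selected cells, an alternative added after seeing the data, 12 genes were higher and 5 lower. No share over all genes compared is given for these counts. CXCL11 (log2 ratio 3.88), CXCL10 (3.26), GBP1 (1.49) and CCL7 (1.49), each with most of its UMIs in 1 selected cell, were past 2-fold under this weighting too. Of the 15 higher genes named below, TFPI2 (1.58), ISG15 (1.16), VCAN (1.08) and MTUS1 (1.06) then stayed past 2-fold, and the others lay between 0.44 for DHRS7 and 0.91 for ECM1, with GSN at 0.76 and SRPX at 0.54. Of the 10 lower genes, TNFSF11 (−1.85), SDC2 (−1.18), ENSECAG00000031496 (−1.15), ENSECAG00000008979 (−1.12) and LRRC17 (−1.04) stayed past it. TFPI2, GSN, ISG15 and ENSECAG00000008979 are leading genes of clusters used for the weighting, so part of the change in their ratios is built in. TFPI2, SFRP2, ECM1, VCAN and GSN were among the higher genes, and TNFSF11, a cytokine of bone remodelling, had the lowest ratio. The 15 higher and 10 lower genes named by rule were each found in 7.96% to 88.5% of the selected cells. In both sets some cells had no UMI of each of them and others had at least 1. At this depth a cell without a UMI may still have held the transcript, so these shares do not show how far the sets overlapped.

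**Figure D3:**
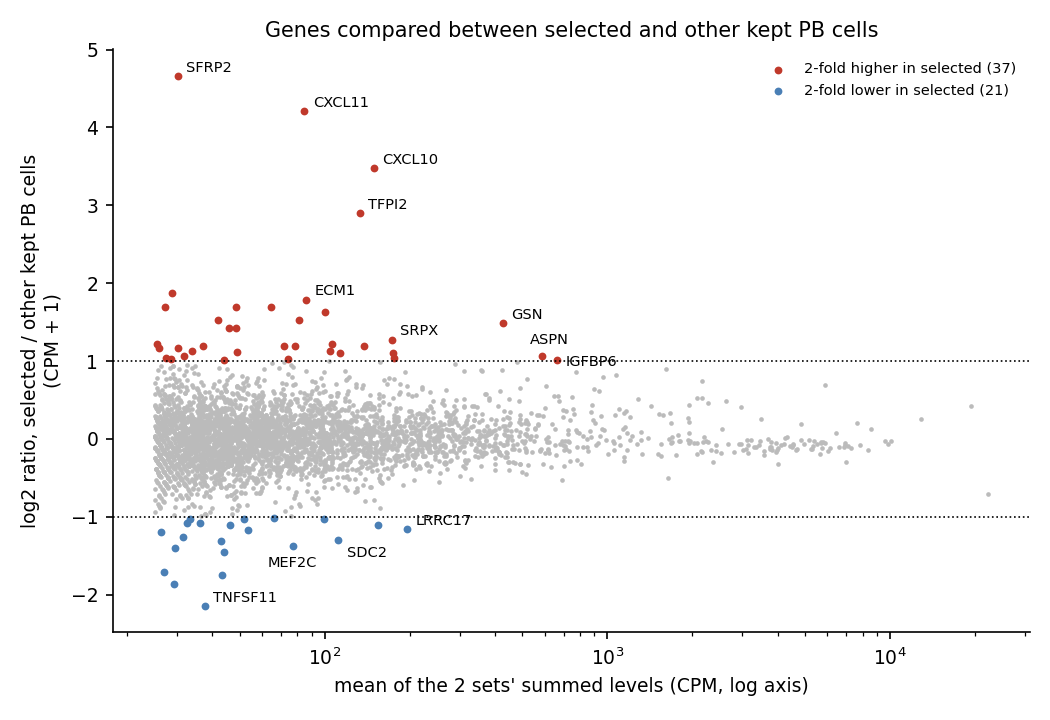
Log2 ratio of the summed level in the selected cells over that in the other kept PB cells (y, CPM + 1) against the mean of both levels (x, CPM, log axis) for the 3818 genes compared, without NSG1, MGP and NDUFA4L2. Of these, 37 lie above the upper line (red) and 21 below the lower line (blue), and SFRP2, CXCL11, CXCL10 and TFPI2 are the highest.

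TFPI2, a secreted Kunitz-type inhibitor of serine proteases, differed most among the genes that were widely detected. It summed to 195 UMIs in 68 of the 113 cells, with a median of 1 and at most 14 per cell, and to 1253 UMIs in 809 of the 5205 other cells. The level was 235 CPM (95% interval 204 to 271) against 30.7 CPM (29.0 to 32.5), a log2 ratio of 2.90 (2.68 to 3.12). At 2500 UMIs per cell it was found in 38.1% and 6.40% of cells. Over all kept cells TFPI2 was at 8.93 CPM in AT and 25.6 CPM in BM. These are levels of whole libraries, nearer in kind to the 30.7 CPM of the unselected PB cells than to a chosen set.

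ECM1, a secreted matrix glycoprotein, was at 134 CPM against 38.1 CPM (log2 ratio 1.79) and VCAN, the proteoglycan versican, at 99.0 CPM against 29.8 CPM (1.70, 1.36 to 2.02). SRPX, a secreted sushi-repeat protein, was at 245 CPM against 101 CPM and was seen in 82 selected cells. CDH13, a cadherin anchored by a lipid, was at 51.9 CPM against 22.2 CPM in 32 cells. ASPN, a small leucine-rich proteoglycan that binds collagen, was at 795 CPM against 381 CPM (1.06, 0.94 to 1.17), and DCN, decorin, of the same family, stayed under the 2-fold line at 2099 CPM against 1124 CPM. The log2 ratio of ASPN was 0.38 with the weighting by clusters and 0.99 without the cell with most UMIs in each set. ASPN is a leading gene of the TFPI2-led cluster, so part of its fall with the weighting is built into the clusters.

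GSN, the actin-severing protein gelsolin, was at 632 CPM against 225 CPM (1.48, 1.35 to 1.61) and was detected in 100 of the 113 cells, so it was the most widely found of the 15 named higher genes. MTUS1, a microtubule-associated protein, was at 74.9 CPM against 22.4 CPM, and APBB1IP, an adaptor of integrin activation, at 67.6 CPM against 24.5 CPM. SH3BP5, a mitochondrial binding partner of the kinase JNK, was at 62.8 CPM against 21.2 CPM. The nucleolar GTPase GNL2 was at 121 CPM against 41.4 CPM. Of the enzymes, EPHX1 (epoxide hydrolase) was at 71.3 CPM against 25.8 CPM, GLUL (glutamine synthetase) at 150 CPM against 63.5 CPM and DHRS7 (a short-chain dehydrogenase) at 100.2 CPM against 43.4 CPM. For GLUL, 1 cell gave 21.0% of the UMIs of the set. Its log2 ratio was 0.92 without the cell with most UMIs in each set and 0.84 after thinning to 2500 UMIs.

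SFRP2, a secreted protein that binds WNT ligands, had the largest ratio of all genes compared (59.2 CPM against 1.37 CPM, log2 ratio 4.66, 4.18 to 5.11), but its 49 UMIs lay in 14 cells and 31 of them in 3. The other PB cells held 56 UMIs in 39 cells. SFRP1, of the same family, was too low to be among the genes compared, with 26 UMIs in 24 selected cells (31.4 CPM) and 129 UMIs in 110 other cells (3.16 CPM), but no cell held more than 2 of those 26. CEP128, a protein of the mother centriole, was low in the same way, at 42.3 CPM (29.4 to 58.8) against 3.46 CPM (2.91 to 4.08) and with 35 UMIs in 28 selected cells. With the weighting by clusters the log2 ratio went from 4.66 to 1.66 for SFRP2, from 2.96 to 0.47 for SFRP1 and from 3.28 to 0.91 for CEP128. SFRP2 then stood below CXCL11 (3.88) and CXCL10 (3.26). SFRP2, SFRP1 and CEP128 are leading genes of the TFPI2-led cluster, so part of their fall is built into the clusters used for the weighting. NBL1, a BMP antagonist of the DAN family, was at 110 CPM against 47.5 CPM.

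A few of the 37 genes rested on single cells. All 228 UMIs of CXCL10 and all 134 of CXCL11 came from 1 selected cell, which stood in the CXCL10-led cluster of 36 cells. These chemokines attract T cells and, like GBP1, are induced by interferon, and the same cell held 34 of the 35 UMIs of GBP1 and 34 of the 126 of ISG15, a ubiquitin-like interferon-induced protein. CCL7, a chemokine for monocytes, had 59.1% of its UMIs in 1 cell, and its log2 ratio was −0.05 without the top cell of each set. In all, 9 of the 37 genes had more than 20% of their UMIs in 1 cell. Leaving out for every gene the cell with most UMIs in each set lowered the count of higher genes from 37 to 19 and raised that of lower genes from 21 to 41. The step takes 1 of 113 cells from the selected set and 1 of 5205 from the other, so it tends to lower every ratio by its design. SFRP2 (log2 ratio 4.19), ENSECAG00000033029 (1.27), PKIB (1.09) and MMD (1.05) stayed past 2-fold after it, but came under the minimum of 25 CPM. CXCL10, CXCL11, DCN, ACTN3, PKIB, LY6E and the list members below that did not pass 2-fold were named after their values had been seen.

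Among the lower genes, TNFSF11 (RANKL, the cytokine that drives osteoclast formation) was at 13.3 CPM (6.63 to 23.8) against 62.2 CPM (59.8 to 64.7), with 11 UMIs in 9 selected cells. The transcription factor MEF2C was at 42.3 CPM against 112 CPM (log2 ratio −1.38, −1.89 to −0.91). LRRC17, a secreted leucine-rich protein that restrains osteoclast formation, was at 121 CPM against 271 CPM, and SDC2, the heparan sulfate proteoglycan syndecan 2, at 64.0 CPM against 160 CPM. ADM, the vasodilator peptide adrenomedullin, was at 24.2 CPM against 61.5 CPM. The kinases RPS6KA3 (15.7 CPM against 43.3 CPM) and STK17A (29.0 CPM against 63.6 CPM) and DDAH1, which breaks down methylated arginine, at 18.1 CPM against 44.9 CPM, were lower as well. ENSECAG00000031496 and ENSECAG00000008979, for which no symbol is given, were at 19.3 CPM against 67.2 CPM and at 22.9 CPM against 64.8 CPM.

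The comparison was then followed through the clusters, since the selected cells stood in several. The genes followed had been chosen on these same cells, so their counts within each place describe where the ratios came from and are not to be read as support beside the shares of all genes. Against all other PB cells, 8 of the 37 higher genes were at least 2-fold higher in the 43 selected cells of the TFPI2-led cluster, in the 28 of the PIGK-led cluster and in the 42 elsewhere alike: TFPI2, SFRP2, VCAN, ECM1, MTUS1, GNL2, SH3BP5 and APBB1IP. For SFRP2 this rested on 18 UMIs in 3 cells of the PIGK-led cluster and on 6 UMIs in 2 cells elsewhere. TFPI2 was at 212, 282 and 225 CPM in the 3 places. Of the 21 lower genes, TNFSF11, MEF2C, ACTN3 and ENSECAG00000031496 were at least 2-fold lower in each place, with TNFSF11 at 9.80, 18.2 and 13.2 CPM. In the 3 places 1.53%, 8.87% and 2.08% of all genes compared were 2-fold higher, and 3.22%, 3.66% and 1.4% were 2-fold lower.

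Within the TFPI2-led cluster few of the named genes differed 2-fold between the selected and unselected cells. TFPI2, SFRP1 and CEP128 are leading genes of this cluster, which was built with them in the data. How near their levels lie in its selected and unselected cells is therefore partly a product of the clustering. The 43 selected and 67 unselected cells were at 212 CPM (164 to 271) and 154 CPM (121 to 193) of TFPI2, at 52.3 CPM and 55.4 CPM of CEP128, at 45.7 CPM and 57.5 CPM of SFRP1, and at 9.80 CPM and 8.21 CPM of TNFSF11. For TNFSF11 these were 3 and 4 UMIs (log2 ratio 0.23, −2.10 to 2.43), and DDAH1 had 3 and 12 UMIs (−1.25, −3.29 to 0.53). Such counts are too few to tell equal levels from a 2-fold difference. Of the 15 named higher genes 0 were 2-fold higher there, beside 1.58% of all genes compared, and of these 15 GSN alone had a counting interval above 0 (log2 ratio 0.45, 0.12 to 0.78). Of the 10 lower genes 1, DDAH1, was 2-fold lower, beside 2.1% of all genes. ENSECAG00000008979 went the other way, at 45.7 CPM against 14.4 CPM (1.60, 0.26 to 3.03).

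Within the PIGK-led cluster, most of the named genes differed 2-fold between the selected and the unselected cells. TFPI2 was at 282 CPM (216 to 362) in the 28 selected cells and at 43.8 CPM (36.7 to 51.8) in the 354 unselected ones, CEP128 at 36.4 CPM (15.7 to 71.7) against 4.22 CPM (2.25 to 7.21), and SFRP2 at 81.9 CPM, from 3 cells, against 0.973 CPM. TNFSF11 was at 18.2 CPM (4.96 to 46.6) against 88.9 CPM (78.7 to 100.1). Of the 15 named higher genes 12 were at least 2-fold higher (2.8% of all genes compared there) and 15 above 0, and of the 10 lower genes 9 were at least 2-fold lower (3.21%). PIGK itself (268 CPM and 283 CPM) and PLTP (446 CPM and 495 CPM), which name the cluster, were close between the selected and unselected cells. GSN, EPHX1 and SRPX were highest in this cluster among the selected cells, at 1270, 150 and 437 CPM, and were at 673, 67.5 and 208 CPM in its unselected cells. GSN is a leading gene of this cluster, so its level there is partly built in by the clustering.

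The 42 selected cells of the other 8 clusters gave 11 of the 15 named higher genes at least 2-fold higher than the 4784 unselected cells there, and 8 of the 10 lower genes at least 2-fold lower, beside 2.11% and 1.2% of all genes. TFPI2 was at 225 CPM against 28.0 CPM, CEP128 at 36.4 CPM against 2.71 CPM and SFRP1 at 26.5 CPM against 2.47 CPM. CDH13 went the other way, at 13.2 CPM against 21.4 CPM, with a log2 ratio of −0.65 whose counting interval (−2.28 to 0.65) holds 0.

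**Figure D4:**
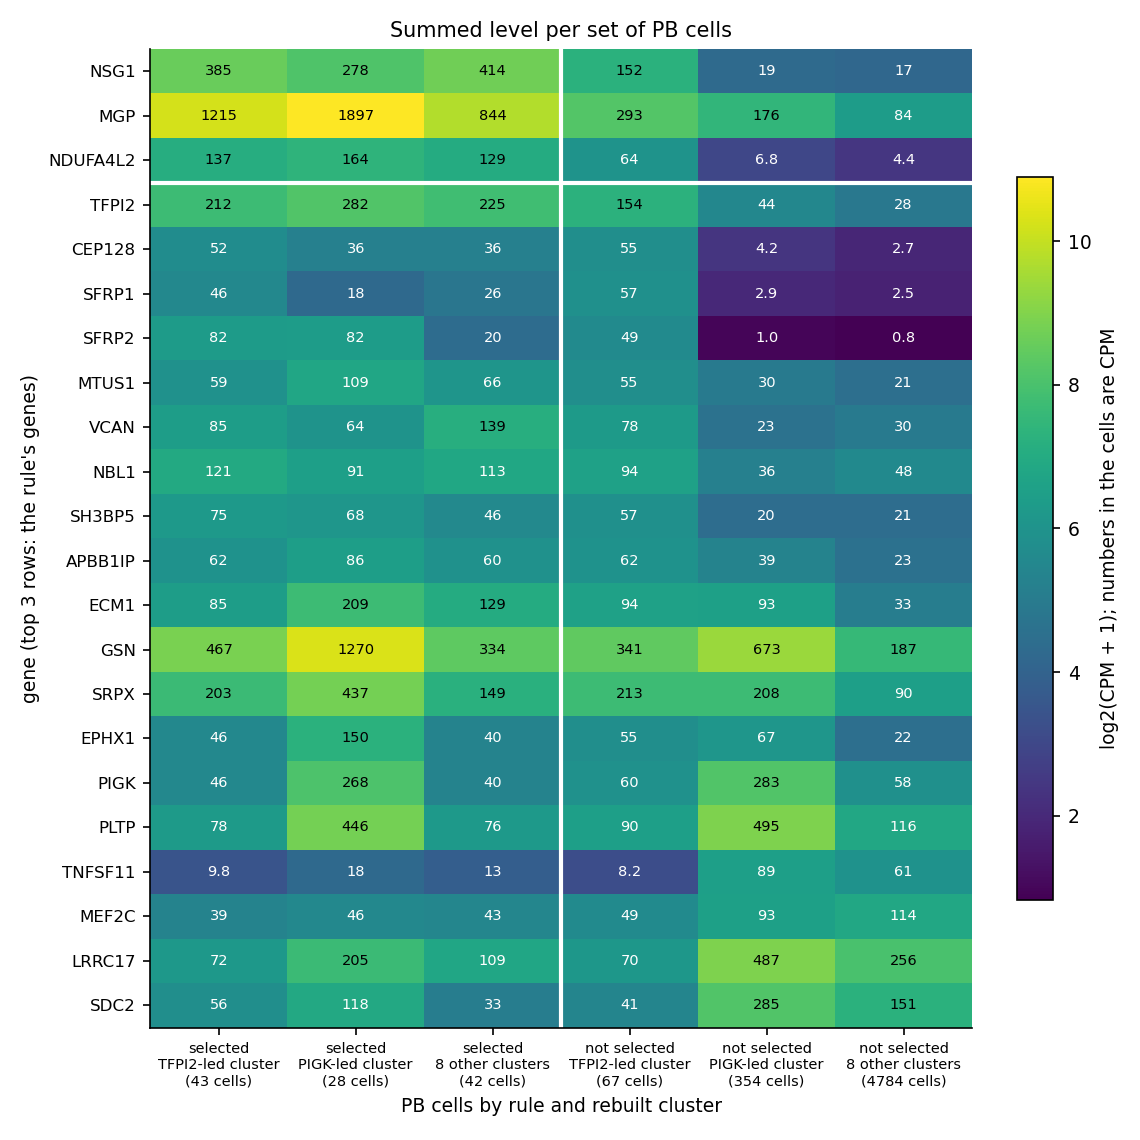
Summed levels of 22 genes (rows) in 6 sets of kept PB cells (columns), with CPM printed in each field and log2(CPM + 1) as colour, the top 3 rows being the genes of the rule. TFPI2, CEP128 and SFRP1 are higher and TNFSF11 and MEF2C lower in the 3 selected sets and in the 67 unselected cells of the TFPI2-led cluster than in the other 2 unselected sets, whereas PIGK and PLTP follow the cluster. TFPI2, CEP128, SFRP1, SFRP2, GSN, PIGK and PLTP are leading genes of these clusters, so their levels there are partly built in by the clustering.

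Gene lists chosen for the tissue and for the roles of the 3 genes are given by their counts, beside the 0.969% higher and 0.55% lower over all genes compared. These counts include genes that were compared only through their level in the selected cells, such as SFRP2, GBP1, IRF1 and HSPA1A. One list gives the genes of a PB cluster with TFPI2 and SFRP1. It was drawn from this same library, so it is not independent evidence, and it also holds NSG1, MGP and NDUFA4L2, which were taken out here and leave 13 genes. Of 11 that could be compared 5 were 2-fold higher (TFPI2, SH3BP5, GNL2, DPYSL3 and CCL26), 0 lower, and the median log2 ratio was 0.99. With the weighting by clusters TFPI2 (1.58) stayed past 2-fold, and SH3BP5 (0.88), GNL2 (0.695), DPYSL3 (0.43) and CCL26 (0.89) did not. DPYSL3, a cytoskeletal phosphoprotein first known from neurons, was at 238 CPM against 110 CPM, and CCL26, a chemokine for eosinophils, at 155 CPM against 71.4 CPM with 21.9% of its UMIs in 1 cell and a log2 ratio of 0.79 without the top cell of each set. The others lay below 2-fold, with THBS2 at 209 CPM against 105 CPM, CAV1 at 249 CPM against 137 CPM, THBS1 at 152 CPM against 88.7 CPM, TAGLN at 2708 CPM against 1615 CPM, ID1 at 442 CPM against 295 CPM and ENO3 at 37.4 CPM against 22.3 CPM. Lists of other PB clusters, from the same library, had genes past 2-fold as well. For cluster 9, which holds ISG15 and GBP1, 8 of 46 genes compared were higher and 1 lower (median 0.30). The lower one was LY6E, at 65.2 CPM against 134 CPM and seen in 26.5% of the selected and 59.4% of the other cells. The higher ones came partly from 1 cell, since GBP1 went from 1.70 to −2.36 without the top cell of each set and ENSECAG00000033029 went from 1.87 to 1.27. For cluster 4 3 of 84 were higher and 77 above 0 (median 0.41), and for cluster 6 4 of 44 were higher and 2 lower (median 0.12). For clusters 0, 3 and 5 these counts were 0 of 3, 0 of 11 and 1 of 6 higher, with 2 lower for cluster 3.

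The lists nearest to the functions of the 3 genes had few calls. Of 13 endosomal recycling genes compared 0 passed 2-fold in either direction (median log2 ratio 0.29), and EHD2, at 144 CPM against 95.9 CPM, was the highest. NSG2, the paralogue of NSG1, had 0 UMIs. Of 29 genes of respiratory complex I 0 passed 2-fold and the median was −0.01. Of 20 targets of hypoxia-inducible factor 0 were 2-fold higher and 1, ADM, was 2-fold lower, with a median of 0.24 and with NDRG1 (95.4 CPM against 47.8 CPM) just below the line. The 6 genes of calcification and vitamin K compared had 0 past 2-fold and a median of 0.05, with ALPL, tissue-nonspecific alkaline phosphatase, at 636 CPM against 319 CPM and GGCX, the carboxylase that matures MGP, at 43.5 CPM against 30.9 CPM.

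Most of the neuronal and lineage lists had few genes high enough to be compared. Of 15 genes of the neural and Schwann list 12 had 0 UMIs in the selected cells, among them STMN2, GAP43 and SOX10, and 10 had 0 UMIs in the other cells. Of the 2 compared DPYSL3 was 2-fold higher and UCHL1 was at 39.9 CPM against 21.0 CPM. Of 12 contractile smooth muscle genes 0 passed 2-fold (median 0.45), with TPM2 at 1227 CPM against 705 CPM and ACTG2 at 100.2 CPM against 51.4 CPM. In the osteoblast list 0 of 3 compared were past 2-fold, with ALPL at the values above and a log2 ratio of 0.99, SP7 at 18.1 CPM against 34.3 CPM, and IFITM5, under the minimum for comparison, was at 13.3 CPM against 35.5 CPM. None of the chondrocyte genes was high enough to be compared, and 7 of 13 had 0 UMIs. The list summed to 22.9 CPM against 20.3 CPM in the other cells. Of the 2 adipocyte genes and the 3 tenocyte genes compared 0 passed 2-fold.

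For matrix and signalling lists, 1 of 6 small leucine-rich proteoglycans (ASPN) was higher, 1 of 10 protease inhibitors (TFPI2), 1 of 5 WNT genes (SFRP2), and 0 of 9 collagens, 0 of 8 matricellular genes, 0 of 6 caveola genes, 0 of 6 BMP and ID genes and 0 of 13 TGF-beta and YAP targets. None of these lists had a lower gene. SERPINF1, the antiangiogenic serpin PEDF, was at 552 CPM against 297 CPM. Of 3 genes of the chemokine and cytokine list compared CCL7 and CCL26 were higher, but without the top cell of each set neither was past 2-fold, and CCL20 and CXCL8, at 18.6 and 9.02 CPM in the other cells, had 0 UMIs in the selected cells, for which 3 UMIs correspond to 3.62 CPM. Of 7 interferon genes compared 7 were above 0 (median log2 ratio 0.53), and ISG15, GBP1 and IRF1 were 2-fold higher. GBP1 and IRF1 were at 12.4 and 17.7 CPM in the other cells and so were compared only through their level in the selected cells. LY6E, not on this list but on that of cluster 9, was 2-fold lower (65.2 CPM against 134 CPM). Per cell, the summed level of the interferon list had a median of 2596 CPM (quartiles 1923 and 3577) in the selected cells. In the other cells it was 1947 CPM (1340 and 2697). Without the cell with most UMIs in each set, the log2 ratio was 1.26 for ISG15 and 0.82 for IRF1, and that of GBP1 turned to −2.36 (1.22 CPM against 10.4 CPM).

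Metabolic and stress lists stayed within 2-fold apart from HSPA1A, an inducible heat shock protein, which was at 42.3 CPM against 18.2 CPM as 1 of 14 immediate early and heat shock genes. The medians were 0.28 for 14 glycolysis genes, 0.31 for 12 genes of folding in the endoplasmic reticulum, 0.00 for 11 of the integrated stress response and −0.27 for 10 mitochondrially encoded genes. Of 9 proliferation genes 1, UBE2C, was lower (32.6 CPM against 74.5 CPM), and the median was −0.34. By phase calls 42.5% (33.2 to 52.1) of the selected and 39.1% (37.8 to 40.5) of the other cells were in S or G2M, and 52.2% (42.6 to 61.7) and 47.5% (46.1 to 48.8) after thinning to 2500 UMIs, with overlapping intervals.

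The selected cells varied among themselves. The 46 with an NDUFA4L2 UMI and the 67 without were in the TFPI2-led cluster at 37.0% and 38.8% and in the PIGK-led cluster at 26.1% and 23.9%. TFPI2 was at 270 CPM and 211 CPM in them, a log2 ratio of 0.35 with an interval from −0.07 to 0.77. CCL26 (0.89, 0.37 to 1.42) was higher and GLUL (−0.91, −1.52 to −0.33) lower with NDUFA4L2. Of the other genes looked at, CAV1 (0.48) and TAGLN (0.25) were higher and ISG15 (−0.67), PLTP (−0.66) and SFRP2 (−1.12) lower with intervals that exclude 0, SFRP2 on 12 against 37 UMIs, 31 of these 49 being in 3 cells. For CCL26, GLUL and ISG15, 1 cell held 28 of 128, 26 of 124 and 34 of 126 UMIs. These intervals do not cover such differences between cells, so the side on which 1 cell falls can change these ratios. A split at the median rate of MGP had PLTP at 287 CPM in the upper 57 cells against 68.4 CPM in the lower 56, GSN at 792 CPM against 479 CPM, THBS1 at 71.8 CPM against 229 CPM, CAV1 at 168 CPM against 325 CPM and CCL26 at 81.7 CPM against 224 CPM. TFPI2 was at 277 CPM against 196 CPM (0.50, 0.08 to 0.93). Both splits use genes of the rule, in which a cell low in one has to be higher in the others, so these values are a description.

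Other sets of PB cells were chosen by the same kind of rule on other genes. With at least 4 UMIs and 8 per 10000 of ACTG2, 2 of 57 cells were shared (1.77% of the selected cells and 3.51% of that set). For CCL2 12 of 754 were shared (10.6% and 1.59%) and for PIGK plus PLTP 8 of 179 (7.08% and 4.47%), while these sets made up 1.07%, 14.2% and 3.37% of the kept PB cells. In the unselected cells of the 3 sets TFPI2 was at 106, 39.7 and 35.9 CPM, and SFRP2 at 1.69, 0.808 and 0.705 CPM. The PIGK plus PLTP set, at 702 CPM of GSN, 117 CPM of ECM1 and 78.9 CPM of EPHX1, came close to the selected cells in these genes.

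The same rule was applied to the AT and BM libraries, in which the 3 genes have other levels. NSG1 was at 58.1 CPM in AT and 258 CPM in BM, MGP at 372 CPM and 16.4 CPM, and NDUFA4L2 at 249 CPM and 174 CPM. The rule was met by 663 of 5403 AT cells, or 12.3% (11.4 to 13.2), and 847 of 5580 BM cells, or 15.2% (14.2 to 16.1), against 2.12% (1.75 to 2.55) in PB. The limits were not adjusted to these levels and took in a larger share of the cells. The counts that follow are therefore not a like comparison with those in PB. In AT 0 of 3693 genes were 2-fold higher (0%) and 0 lower, and in BM 1 of 4186 was higher (0.0239%) and 17 lower (0.406%).

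Of the 15 named higher genes 0 were 2-fold higher in either library. Of the 9 that could be compared in AT 7 were above 0, with a median log2 ratio of 0.08, and of 12 in BM 10 were above 0, with a median of 0.17, beside medians of −0.01 and −0.02 over all genes compared there. The named lower genes leaned the same way, with 2 of 3 above 0 in AT (median 0.10) and 7 of 8 in BM (median 0.19), so these leanings did not follow the directions in PB. TFPI2 was under the minimum for comparison in both, at 8.68 CPM against 8.97 CPM in AT and at 12.6 CPM against 27.8 CPM in BM (log2 ratio −1.08, −1.42 to −0.76), the latter opposite in direction to PB. VCAN was slightly higher in both, at 133 CPM against 113 CPM in AT and 141 CPM against 117 CPM in BM. SDC2, lower in PB, was at 205 CPM against 149 CPM in BM. The named genes had been chosen on the PB values, and with 1 library each, source and library cannot be told apart.

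**Figure D5:**
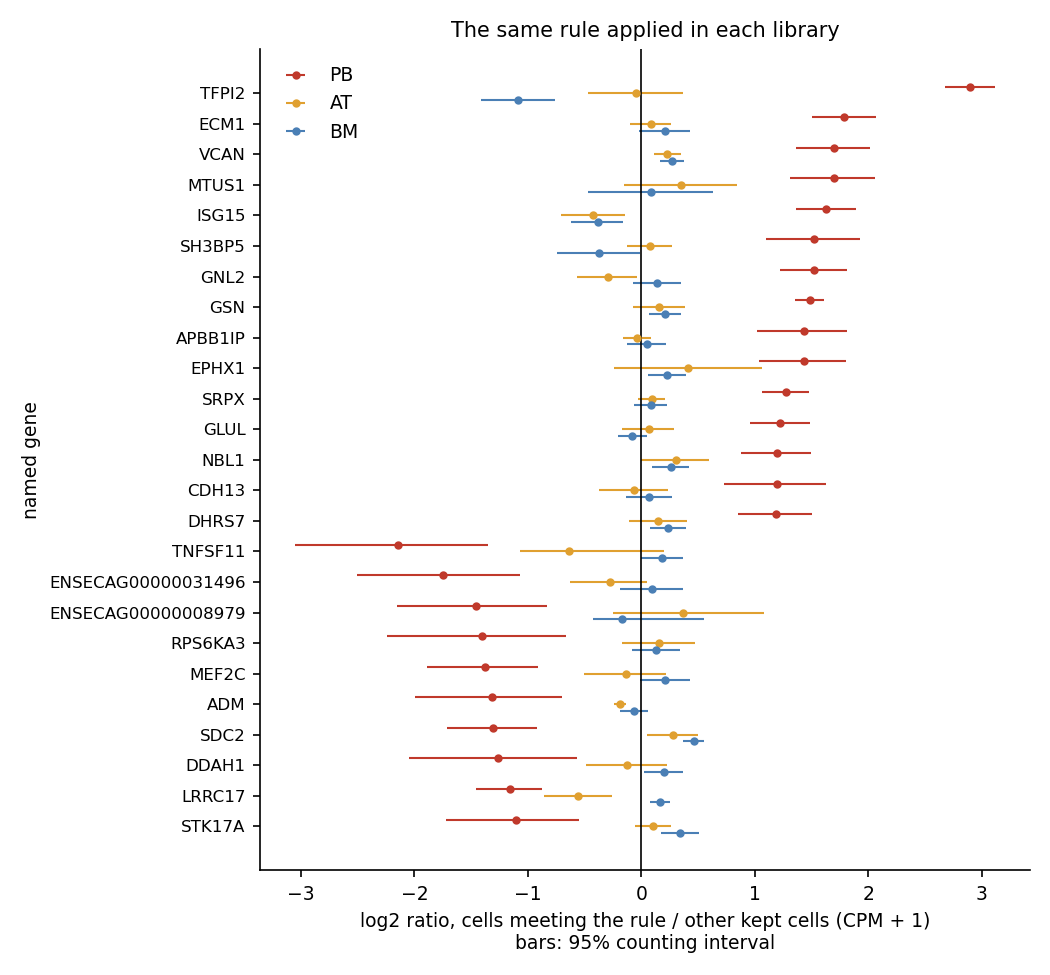
Log2 ratio of the level in cells that meet the rule over that in the other kept cells of the same library (x, CPM + 1, with 95% counting intervals) for the 15 higher and 10 lower named genes (y) in PB, AT and BM. The PB points, on which the genes were chosen, lie past 1 or −1, while the AT and BM points lie nearer to 0, the lowest being TFPI2 in BM at −1.08.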

How the data were processed

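The input was 3 droplet scRNA-seq matrices of unnormalized UMI counts, each with genes in rows and barcodes in columns. The authors made these deposited counts with Cell Ranger on EquCab3.0 and ESAT, which also counts reads just downstream of genes. Overlapping exons of opposite strands were left out and duplicated features were merged to 1 entry per gene, so paralogues with identical sequence are uncertain. The methods state that multiplets called by DoubletDetection were removed from downstream analyses, and whether this preceded deposit is not stated.

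The matrices held 11757, 6455 and 6180 barcodes with 48688055, 45327399 and 47380686 UMIs for AT, BM and PB. A barcode was kept if its total lay between 2500 and 15000 UMIs and its mitochondrial part did not exceed 3%. UMIs were summed over cells and given as CPM, and ratios are differences of log2(CPM + 1), called at 2-fold, with the 3 genes of the rule left out of the genes compared but not of the totals. Genes were named when at least 25% of the cells of the higher set had a UMI, 15 with the largest and 10 with the smallest ratio, together with 13 genes of the study's list for PB cluster 8 (NSG1, MGP and NDUFA4L2, also on it, were taken out), up to 4 called genes of each list and defining markers. Of the 29882 genes of the PB matrix 13163 have an Ensembl identifier only. For clusters and phases, R 4.3.3 was used with the packages Seurat (5.3.0) and sctransform (0.4.2), at resolution 0.6 on 20 principal components of 3000 variable genes. Of the phase genes, 40 of 43 for S and 50 of 54 for G2M were in the matrix. Scrublet scores came from Scanpy 1.11.5, and intervals from SciPy 1.17.1. Doublets were not removed in the main comparison, and 1 alternative dropped the top 5% by this score. The computation was tested on Poisson counts simulated for whole sets, without variation between cells. That test therefore does not bear on genes whose UMIs lie in a few cells. The members and gene lists were chosen with earlier results of these data known. Other alternatives were thinning, weighting by depth, other pseudocounts, minima and scalings, G1 cells, other filters and other forms of the rule. Sequences were not used here.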

Additional observations from a re-analysis of the deposited data

How the results depend on the processing

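No paired analysis was possible because each source had 1 library. The alternatives by cluster were chosen after seeing the data. From 37 genes higher and 21 lower, the counts went to 71 and 76 with thinning to 2500 UMIs, where fewer UMIs stand behind each gene, to 12 and 5 with a pseudocount of 25 CPM, to 13 and 3 with a minimum of 100 CPM and to 577 and 1128 without a minimum, and to 54 and 37 in G1 cells. They were 60 and 65 with the rule at 6 UMIs and 12 per 10000 (64 cells), 42 and 33 with NSG1 and MGP alone (99 cells), 21 and 9 with 2 UMIs of NSG1 alone (226 cells), 14 and 9 without a required NSG1 UMI (224 cells), and 19 and 41 without the top cell of each gene. The last of these steps bears more on the selected cells than on the larger set. The counts were 57 and 120 for the selected cells of the TFPI2-led cluster (1.53% and 3.22% of all genes compared) and 75 and 23 outside it. They were 80 and 54 outside the 2 clusters (2.08% and 1.4%), and 12 and 5 with the other cells weighted to the selected cells' clusters, where TFPI2 was at a log2 ratio of 1.58. Outside the 2 clusters CDH13 was reversed at −0.70. The other alternatives kept both counts within 1.5 times. Apart from the shares above, no share over all genes compared is given for the counts under these alternatives. With a minimum of 100 CPM and without a minimum, the ratios of all 35 genes followed were the same. Those 2 pairs of counts thus changed with the genes that were compared. The share of selected cells in the cluster with most of them was 61.1% with the 3 genes left in and 52.2% with log normalization, and 3.09% of that cluster was selected with 10 principal components. The share in S or G2M was 52.2% after thinning. Of the 15 named higher genes TFPI2 (1.58 to 3.15) and MTUS1 (1.06 to 1.98) alone stayed past 2-fold under every alternative. The lowest values of the others ran from −0.70 for CDH13 and 0.02 for ISG15 through 0.53 for EPHX1, 0.54 for SRPX and 0.57 for GSN to 0.99 for VCAN. Each of the 10 lower genes came within 2-fold under some alternative, with values nearest to 0 of −0.18 for SDC2, −0.19 for LRRC17, −0.27 for TNFSF11 and −0.65 for MEF2C. With 113 cells, levels under 3.62 CPM were not measurable, and the causes of these shifts were not tested.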

Other observations

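IGF2, LDB2 and FAM20A, which the report does not describe, were each found in a minority of the cells of the TFPI2-led cluster, in 8, 9 and 9 of its 43 selected and in 8, 14 and 10 of its 67 unselected cells. IGF2, an insulin-like growth factor, was at 58.8 CPM in the 43 selected cells of the TFPI2-led cluster, 31.9 CPM in the 28 of the PIGK-led cluster and, from 2 UMIs, 6.62 CPM in the 42 elsewhere, and at 45.2, 3.89 and 2.26 CPM in the unselected cells of the same places. LDB2, a cofactor of LIM-domain transcription factors, was at 39.2, 36.4 and 13.2 CPM in the selected and at 28.7, 3.24 and 0.833 CPM in the unselected cells. FAM20A, a pseudokinase of the secretory pathway, was at 45.7, 41.0 and 29.8 CPM against 22.6, 6.81 and 4.08 CPM. These 3 genes were chosen after their values had been seen.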
